A study of Homo sapiens with 39 samples.

Results

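The direct comparison of enzalutamide with abiraterone acetate rested on 6 of the 39 RNA-seq libraries of the series, 3 from C4-2B cells given Enzalutamide at 20 µM and 3 from C4-2B cells given Abiraterone Acetate at 5 µM. These 6 are every panel library whose treatment label names 1 of these drugs and no other. C4-2B is an established human castration-resistant prostate cancer line derived from LNCaP. Cells in RPMI 1640 with FBS were treated from the day after plating and harvested after 5 days. The DMSO vehicle libraries (3) of the same 21-library panel place each level against untreated cells. A further 6 panel libraries hold the same 2 drugs at the same doses together with a PARP inhibitor (PARPi), 3 with Olaparib at 1 µM added to abiraterone and 3 with Talazoparib at 10 nM added to enzalutamide. The drugs were given at different concentrations, so drug and dose cannot be told apart anywhere below. The labels do not say whether the 3 libraries of a group, lettered A to C, came from separate cultures, so p-values measure the spread between these libraries, which may be technical.

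Androgens act through a nuclear receptor that binds DNA once activated and drives genes such as KLK3, which encodes prostate-specific antigen. Enzalutamide is an antagonist that occupies the receptor itself. Abiraterone acetate is the prodrug of an inhibitor of CYP17A1, the enzyme that makes androgen precursors, and so acts upstream of the receptor. The comparison asks what separates the cells' response to these 2 inhibitors of androgen signalling.

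Total counts were 30379392 to 33135225 in the abiraterone libraries, 29391817 to 41208489 in the enzalutamide libraries and 29707578 to 39905703 in the DMSO libraries. All 11 prostate luminal markers, KLK3 and KLK2 among them, had at least 10 counts in every library of these 3 groups. Of the markers of other cell types, DST, COL1A1, PDGFRB, VWF, CD68 and SYP reached that level and the other 18 did not. The summed fibroblast markers were 20.1 to 21.8 CPM (counts scaled to a common library total) with abiraterone and 19.9 to 20.8 with enzalutamide. The summed endothelial markers were 20.7 to 21.3 CPM with abiraterone and 11.6 to 12.7 with enzalutamide, of which VWF was the only 1 counted above that level in every library. The share of counts from mitochondrial genes was 10.9% to 11.5% with abiraterone and 11.3% to 12.3% with enzalutamide, against 9.68% to 10.1% with DMSO. In bulk RNA a change in the share of a cell type cannot be told apart from a change in RNA per cell.

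Promoter stretches of a few genes described below are shown first, written 5′ to 3′ on the gene's strand, on GRCh38. The genes were picked by hand, and each stretch was chosen for holding the bases set in capitals. The first 2 are the 250 bases before a RefSeq start site of KLK3 (chr19:50854665-50854914, plus strand) and of TRPM8 (chr2:233979899-233980148, plus strand), both lower with enzalutamide than with abiraterone. Capitals mark AGAACA, the core repeated within the palindromic element that steroid receptors bind, searched on both strands.
KLK3: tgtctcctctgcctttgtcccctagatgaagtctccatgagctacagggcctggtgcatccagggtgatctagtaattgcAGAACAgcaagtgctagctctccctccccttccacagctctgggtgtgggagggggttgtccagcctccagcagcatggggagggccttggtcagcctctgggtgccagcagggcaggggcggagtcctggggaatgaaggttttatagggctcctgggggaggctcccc
TRPM8: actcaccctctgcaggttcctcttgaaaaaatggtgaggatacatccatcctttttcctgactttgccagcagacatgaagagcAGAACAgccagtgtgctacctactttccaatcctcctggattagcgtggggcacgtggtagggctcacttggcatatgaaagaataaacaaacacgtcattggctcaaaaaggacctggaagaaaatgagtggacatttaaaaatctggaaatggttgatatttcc
The match began 170 bases before the start in KLK3 and 166 in TRPM8. AGAACA was present in this window in 4046 of the 27305 genes with a RefSeq promoter (14.8%). Of the 39 androgen-induced genes with an entry 5 (12.8%) held it, a share no higher than that over all genes.

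The next 3 stretches belong to ASNS (chr7:97872458-97872487, minus strand), CHAC1 (chr15:40953251-40953280, plus strand) and CEBPG (chr19:33373963-33374112, plus strand), all higher with enzalutamide than with abiraterone. ASNS and CHAC1 are given as 30 bases around the match, because other transcripts in GENCODE reach across it. Capitals mark TGATGNAA, the core shared by CEBP-ATF elements, where ATF4 pairs with a C/EBP factor; in CHAC1 it lies on the opposite strand.
ASNS: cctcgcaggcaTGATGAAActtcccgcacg
CHAC1: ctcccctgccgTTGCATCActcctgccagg
CEBPG: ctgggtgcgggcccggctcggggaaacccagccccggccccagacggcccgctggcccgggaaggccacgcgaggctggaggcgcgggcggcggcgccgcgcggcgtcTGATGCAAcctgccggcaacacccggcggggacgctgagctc
The match began 68 bases before the start of ASNS, 209 before that of CHAC1 and 42 before that of CEBPG. It was present in 1061 of 27305 genes (3.89%) and in 6 of the 27 genes of the ATF4 list with an entry (22.2%), namely ATF3, CHAC1, ASNS, CEBPG, FGF21 and JDP2.

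The last stretch is 300 bases upstream of CYP1A1 (chr15:74726355-74726654, minus strand), which ends 827 bases before its RefSeq start site. CYP1A1 was the gene with the second largest fall from abiraterone to enzalutamide by the naming rule used here. Capitals mark TNGCGTG, the core of the element bound by the aryl hydrocarbon receptor (AHR), on either strand.
CYP1A1: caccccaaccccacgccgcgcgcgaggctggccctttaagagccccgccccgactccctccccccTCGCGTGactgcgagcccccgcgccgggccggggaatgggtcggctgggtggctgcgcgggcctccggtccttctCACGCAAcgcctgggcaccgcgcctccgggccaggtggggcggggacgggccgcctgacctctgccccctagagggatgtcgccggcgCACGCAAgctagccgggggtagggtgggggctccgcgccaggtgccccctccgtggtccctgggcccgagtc
The 1500 bases before the CYP1A1 start held 5 matches, a number reached by 8 of 35116 start sites (0.0228%), while 23.2% of start sites held at least 1. The same window of CYP1A2 held 0.

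Between enzalutamide and abiraterone 3694 of 18625 genes tested (19.8%) differed at an adjusted p under 0.05 (edgeR's quasi-likelihood test, Benjamini-Hochberg). Of these, 1822 (9.78% of genes tested) were higher and 1872 (10.1%) lower with enzalutamide. The differences were small. The median size among the genes called was 0.22 on the log2 scale, and 229 genes reached a 2-fold difference, 60 higher and 169 lower. With a gene symbol and a mean of at least 100 counts, 33 genes did so, 8 higher and 25 lower. The log2 difference given for each gene is enzalutamide minus abiraterone, with its standard error (SE), and a negative value means a lower level with enzalutamide.

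**Figure D1:**
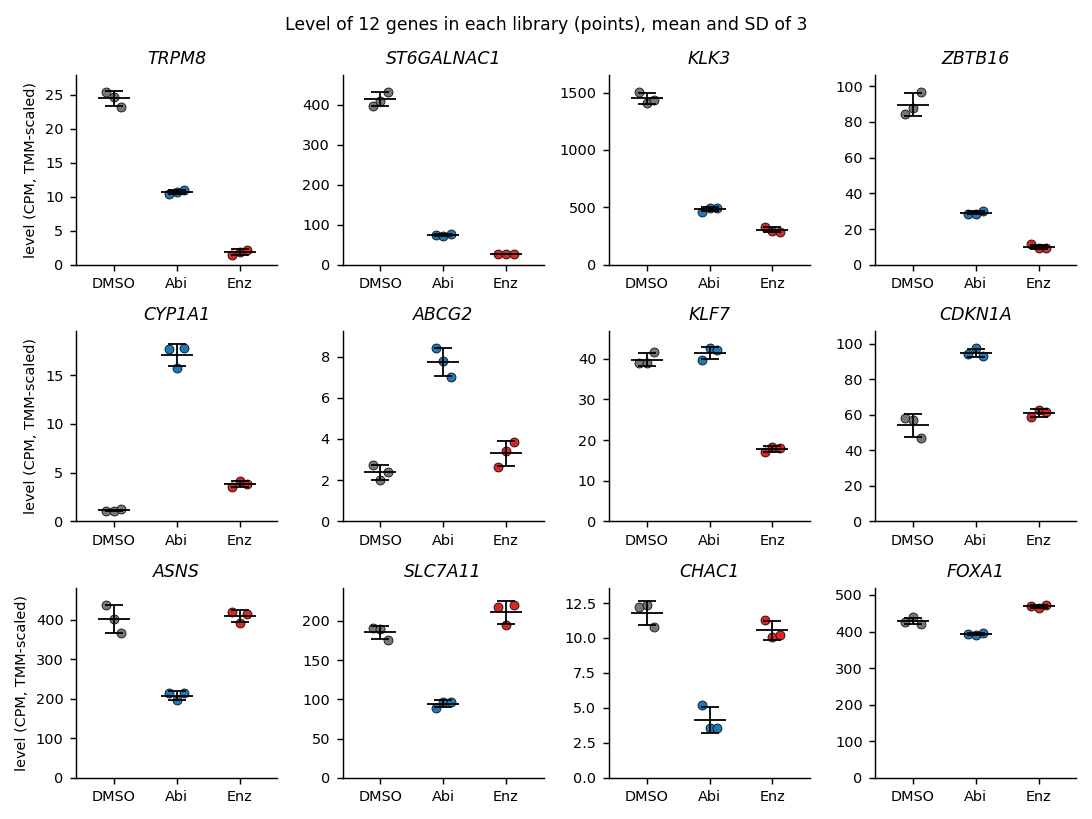
Level of 12 genes in each DMSO, abiraterone (Abi) and enzalutamide (Enz) library, in TMM-scaled CPM on a linear axis from 0, with points for the 3 libraries of a group and bars for their mean and SD. TRPM8, ST6GALNAC1, KLK3 and ZBTB16 fell in 2 steps from DMSO to enzalutamide, KLF7 was low only with enzalutamide, and ASNS, SLC7A11 and CHAC1 were low only with abiraterone.

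CYP17A1, the target of abiraterone, was barely counted in any group, with 1, 2 and 7 counts with DMSO, 0 in each abiraterone library and 3, 1 and 1 with enzalutamide. No fold can be given at these counts, and the difference was not past the threshold (adjusted p = 0.102).

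Androgen-induced genes were lower with enzalutamide than with abiraterone. Of 52 such genes, all tested, 38 were lower and 3 higher, against 10.1% and 9.78% of all genes, and their median log2 difference was -0.33 against 0.00 over all genes tested. Both drugs had already lowered this group against DMSO. With abiraterone 50 fell and 2 rose against DMSO (27.1% and 25.8% of all genes), with a median of -1.47, and with enzalutamide 50 fell and 2 rose (26.3% and 27.0%), with a median of -1.90. These comparisons share the DMSO libraries. In 37 of the 52 genes every enzalutamide library lay below every abiraterone library and those below every DMSO library, an order that 5.07% of all genes tested had.

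KLK3 was 1507, 1409 and 1434 CPM with DMSO, 461, 497 and 498 with abiraterone and 329, 295 and 289 with enzalutamide. The 3 groups were fully separated, and the step from abiraterone to enzalutamide was 1.59-fold (log2 difference -0.67 ± 0.05, adjusted p = 8.47e-09). KLK2, a close relative whose reads may be shared in part with KLK3, showed the same order, with a log2 difference of -0.85 ± 0.05. For KLK3 the spread within each group was far smaller than either step.

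The size of the second step differed widely between androgen-induced genes. TMPRSS2, a membrane serine protease, was 283, 250 and 219 CPM with DMSO, 43.1, 47.4 and 47.3 with abiraterone and 37.2, 35.8 and 35 with enzalutamide (log2 difference -0.35 ± 0.09, adjusted p = 0.0123). FKBP5, a co-chaperone of steroid receptors, was 826, 838 and 857 CPM with DMSO, 126, 132 and 132 with abiraterone and 119, 118 and 123 with enzalutamide. That last step was only 1.08-fold, though the libraries did not overlap (log2 difference -0.11 ± 0.03, adjusted p = 0.00323). At the other end was TRPM8, a cold-sensing ion channel, with 25.4, 24.7 and 23.2 CPM with DMSO, 10.4, 10.7 and 11.1 with abiraterone and 1.37, 1.91 and 2.2 with enzalutamide. TRPM8 was 5.72-fold lower with enzalutamide, the largest fall by the naming rule (log2 difference -2.52 ± 0.10, adjusted p = 1.02e-19).

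Other genes showed the same 2 steps. ZBTB16, a zinc finger transcription factor, was 84.4, 88 and 96.9 CPM with DMSO, 28.6, 28.7 and 30.1 with abiraterone and 11.5, 9.15 and 9.36 with enzalutamide (log2 difference -1.56 ± 0.08, adjusted p = 4.25e-13). ST6GALNAC1, a sialyltransferase that makes the sialyl-Tn antigen, was 398, 410 and 432 CPM with DMSO, 74.5, 70.8 and 77.2 with abiraterone and 27, 26.4 and 26.5 with enzalutamide (log2 difference -1.48 ± 0.06, adjusted p = 6.21e-14). C1orf116 (log2 difference -1.12 ± 0.05) and MYBPC1 (-1.26 ± 0.11) followed the same order without overlap. ADAM7 fell from 629, 735 and 854 counts with DMSO to 5, 1 and 6 with abiraterone and 1, 1 and 0 with enzalutamide. Its 2 treated groups overlapped at this depth, and the adjusted p of 0.0253 rose above the threshold without Abi A (0.0874), Abi C (0.137), Enz B (0.0563) or Enz C (0.125).

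The exceptions were LIFR, the receptor of leukaemia inhibitory factor, TPD52 and ARID5B. LIFR was 183, 191 and 202 CPM with DMSO, 61.7, 64.1 and 61.1 with abiraterone and 79, 77.6 and 85.9 with enzalutamide, so the enzalutamide libraries lay between the others (log2 difference 0.38). TPD52 and ARID5B were higher with enzalutamide by 0.11 and 0.18. ACP3, prostatic acid phosphatase, was 1 of the 2 members above DMSO with both drugs, at 34.1, 36.4 and 38.4 CPM with abiraterone and 32.6, 32.6 and 32.9 with enzalutamide against 15.5 to 16.8 with DMSO.

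**Figure D2:**
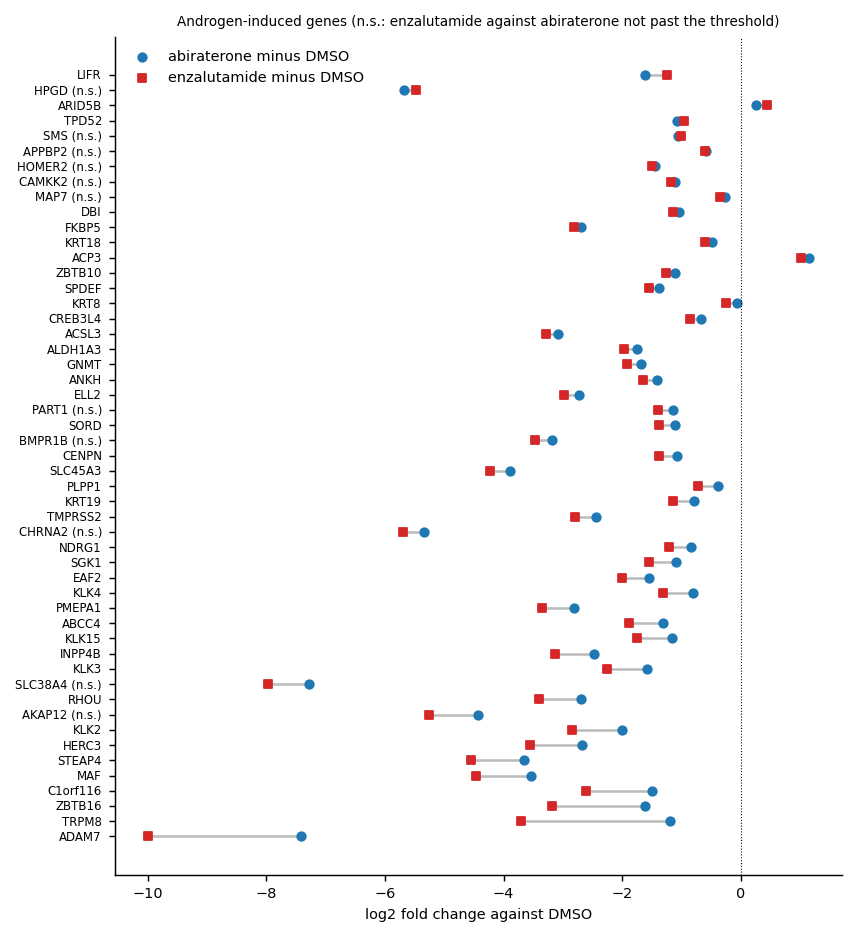
Log2 fold change against DMSO of 51 androgen-induced genes with abiraterone (blue circles) and enzalutamide (red squares), ordered by the difference between both drugs; n.s. marks genes whose difference between both drugs was not past the threshold. In 37 genes the enzalutamide symbol lies to the left past the threshold; both symbols rest on the same DMSO libraries.

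Genes that androgens repress were also lower with enzalutamide than with abiraterone. Of 10 listed 9 were tested, 6 were lower and 0 higher, with a median log2 difference of -0.25, where 10.1% of all genes were lower. Against DMSO 7 rose and 2 fell with abiraterone (median 0.75), and 6 rose and 2 fell with enzalutamide (median 0.38), where 25.8% of all genes rose with abiraterone and 27.0% with enzalutamide. UGT2B17, which conjugates androgens to glucuronic acid for disposal, was 6.55, 6.29 and 6.2 CPM with DMSO, 63.5, 55.3 and 57.4 with abiraterone and 26.3, 32.2 and 30.5 with enzalutamide. Both drugs raised it, and the level was 1.97-fold lower with enzalutamide than with abiraterone (log2 difference -0.98 ± 0.06, adjusted p = 7.95e-13). UGT2B15 (log2 difference -0.35 ± 0.04) and UGT2B10 (-1.08 ± 0.18) were lower as well. MET, the hepatocyte growth factor receptor, was 25.6, 25 and 24.3 CPM with abiraterone and 20.3, 22.5 and 20.1 with enzalutamide (log2 difference -0.25 ± 0.06, adjusted p = 0.00326). The UGT2B genes are near-identical copies whose counts are uncertain. The 2 members that fell were UGT2B11 and UGT2B28, with log2 differences between the drugs of 0.08 and -0.25 that were not past the threshold.

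Several genes of steroid synthesis and turnover were lower with enzalutamide. Of 38 listed genes 21 were expressed enough to be tested, 6 were lower and 0 higher, with a median of -0.09, where 10.1% of all genes were lower. That median was -0.019 without Abi A, -0.047 without Abi C, -0.038 without Enz A and -0.025 without a filter on low counts. CYP11A1, which makes pregnenolone from cholesterol, had 76, 96 and 103 counts with DMSO, 11, 8 and 11 with abiraterone and 3, 1 and 4 with enzalutamide (log2 difference -2.06 ± 0.43, adjusted p = 0.000571). STS, steroid sulfatase, was 28.7 to 33.8 CPM with DMSO, 29.7, 29.9 and 27.1 with abiraterone and 19.5, 23.2 and 20.6 with enzalutamide. STS was thus lower with enzalutamide than in either other group (log2 difference -0.45 ± 0.07, adjusted p = 8.28e-06), whereas its abiraterone libraries overlapped DMSO.

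Among 17 of 20 steroid receptors and their partner proteins tested, 2 were higher and 5 lower with enzalutamide (9.78% and 10.1% of all genes), with a median of 0.00. FOXA1, a pioneer factor that opens chromatin for steroid receptors, was 425, 439 and 422 CPM with DMSO, 393, 390 and 395 with abiraterone and 470, 464 and 473 with enzalutamide. The 3 groups did not overlap, abiraterone lay below DMSO and enzalutamide above it (log2 difference 0.25 ± 0.02, adjusted p = 1.55e-10). NCOA1, a steroid receptor coactivator, was 202, 220 and 203 CPM with abiraterone and 159, 157 and 164 with enzalutamide (log2 difference -0.38 ± 0.04, adjusted p = 4.78e-07). NR3C2, the mineralocorticoid receptor, was lower with enzalutamide by 0.57 ± 0.09 on the log2 scale. NR3C1, the glucocorticoid receptor, had a level of at most 0.263 CPM in these libraries and was not tested.

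Genes known to respond to glucocorticoids moved in both directions. Of 12 tested of 15, 3 were higher and 5 lower with enzalutamide (9.78% and 10.1% of all genes), with a median of -0.09, and without Abi C 5 in all were called. FKBP5, ZBTB16 and SGK1, among the lower ones, are also members of the androgen-induced list above. PER1, a circadian clock repressor, was 12.9, 13.9 and 14.7 CPM with DMSO, 21.1, 23.4 and 21.1 with abiraterone and 9.4, 9.6 and 11.1 with enzalutamide. It thus rose with abiraterone and fell with enzalutamide against DMSO, a 2.17-fold difference (log2 difference -1.12 ± 0.08, adjusted p = 4.21e-12). TSC22D3, also called GILZ, went the other way, with 43, 40.4 and 37.4 CPM with DMSO, 22.1, 20 and 22.3 with abiraterone and 41.2, 35.1 and 39.1 with enzalutamide. Only the abiraterone libraries stood apart (log2 difference 0.84 ± 0.06, adjusted p = 7.44e-13).

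The clearest rise with enzalutamide relative to abiraterone was in genes of the amino acid response. ATF4 is a transcription factor whose protein is made when the integrated stress response slows translation, and its targets import amino acids and make serine, asparagine and glutathione precursors. Of 34 listed genes, all tested, 30 were higher with enzalutamide and 0 lower (9.78% and 10.1% of all genes), with a median log2 difference of 0.56. Against DMSO 28 fell and 1 rose with abiraterone (median -0.62), while 12 rose and 11 fell with enzalutamide (median 0.01). Of all genes 27.1% fell with abiraterone, and 27.0% rose and 26.3% fell with enzalutamide, so the members' counts with enzalutamide were near those over all genes. In 21 of the 34 every enzalutamide library lay above every abiraterone library with DMSO overlapping a group or between them, as in 10.2% of all genes tested.

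ATF4 itself was 551, 520 and 531 CPM with DMSO, 349, 338 and 346 with abiraterone and 529, 482 and 501 with enzalutamide (log2 difference 0.55 ± 0.03, adjusted p = 4.8e-17). The abiraterone libraries were well below the rest, and the enzalutamide libraries overlapped DMSO. ASNS, asparagine synthetase, was 438, 402 and 366 CPM with DMSO, 214, 196 and 215 with abiraterone and 421, 393 and 414 with enzalutamide, a 1.96-fold difference (log2 difference 0.97 ± 0.06, adjusted p = 1.25e-08). SLC7A11, the cystine importer, was 190, 190 and 176 CPM with DMSO, 89.2, 97.2 and 97.1 with abiraterone and 218, 195 and 220 with enzalutamide. Here enzalutamide lay slightly above DMSO and abiraterone far below it (log2 difference 1.16 ± 0.07, adjusted p = 2.98e-09). CHAC1, which breaks down glutathione, was 12.2, 12.4 and 10.8 CPM with DMSO, 5.17, 3.59 and 3.57 with abiraterone and 11.3, 10.1 and 10.2 with enzalutamide (log2 difference 1.35 ± 0.12, adjusted p = 1.68e-10). FGF21, a secreted stress hormone, had 16, 12 and 23 counts with DMSO, 1, 5 and 5 with abiraterone and 17, 18 and 19 with enzalutamide (adjusted p = 0.00704, and 0.0669 without Abi A).

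Of the other members, PSAT1, of serine synthesis, was 274, 255 and 280 CPM with abiraterone and 472, 458 and 481 with enzalutamide (log2 difference 0.80 ± 0.05). PHGDH, the first enzyme of that pathway, was 394, 366 and 345 CPM with DMSO, 363, 343 and 354 with abiraterone and 519, 522 and 523 with enzalutamide. In PHGDH abiraterone overlapped DMSO and enzalutamide stood above both. SLC7A5, the large neutral amino acid carrier, was higher with enzalutamide by 0.65, PCK2, mitochondrial PEP carboxykinase, by 0.93, and TRIB3, a pseudokinase that feeds back on ATF4, by 0.80. CEBPG, a partner of ATF4, was 62.3, 59 and 59.2 CPM with abiraterone and 80.3, 77.7 and 81.2 with enzalutamide (log2 difference 0.41 ± 0.04). DDIT4 and ATF5 were among the 4 members not past the threshold, with log2 differences of 0.20 and -0.12.

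**Figure D3:**
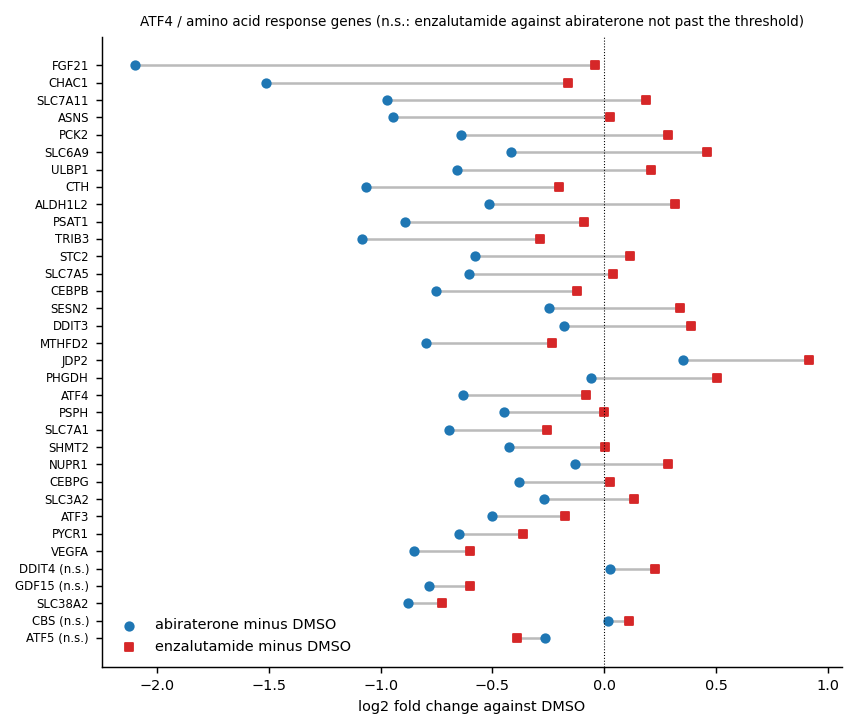
Log2 fold change against DMSO of the 34 genes of the ATF4 and amino acid response list with abiraterone (blue circles) and enzalutamide (red squares), ordered by the difference between both drugs; n.s. marks a difference between both drugs not past the threshold. For 30 genes the enzalutamide symbol lies to the right past the threshold.

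Aminoacyl-tRNA synthetases, which load amino acids onto tRNAs, were also higher with enzalutamide than with abiraterone, but most stayed below DMSO with both. Of 20 cytosolic synthetases 12 were higher and 1 lower with enzalutamide (9.78% and 10.1% of all genes), with a median of 0.24. Against DMSO 19 fell with abiraterone (27.1% of all genes, median -0.38), and 17 fell and 2 rose with enzalutamide (26.3% and 27.0%, median -0.19). GARS1, for glycine, was 343, 337 and 316 CPM with DMSO, 205, 198 and 204 with abiraterone and 311, 298 and 320 with enzalutamide (log2 difference 0.61 ± 0.03, adjusted p = 2.79e-16). AARS1, CARS1 and MARS1 were higher by 0.48, 0.49 and 0.48. Of 30 chaperones and secretion factors of the endoplasmic reticulum, 17 were higher and 1 lower, with a smaller median of 0.11, and all 30 fell with abiraterone against DMSO while 27 fell with enzalutamide, beside the same shares of all genes. XBP1, a transcription factor of the unfolded protein response, was 206, 193 and 194 CPM with DMSO, 151, 140 and 151 with abiraterone and 211, 193 and 204 with enzalutamide (log2 difference 0.46 ± 0.04, adjusted p = 2.08e-11). HSPA5, the main chaperone of that compartment, differed by only 0.09 ± 0.03.

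**Figure D4:**
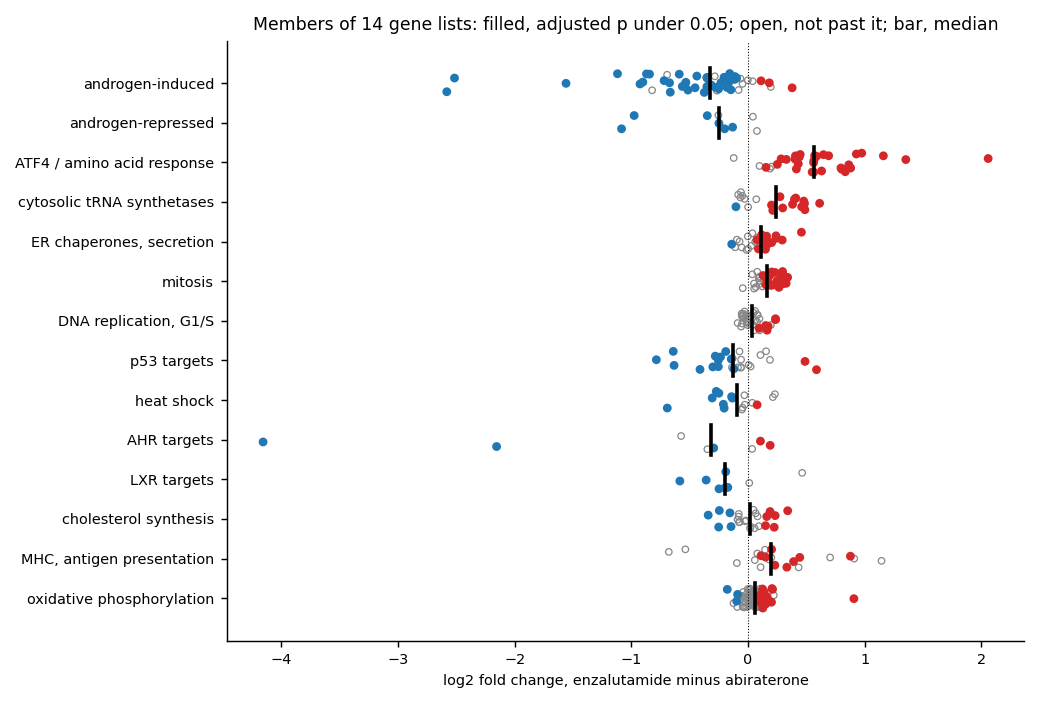
Log2 fold change, enzalutamide minus abiraterone, of each tested member of 14 gene lists; filled points passed the threshold (red higher, blue lower with enzalutamide), open points did not, and the bar is the list's median. The androgen-induced bar lies at -0.33, the AHR bar at -0.32 and the ATF4 bar at 0.56, while the other bars shown lie nearer to 0.

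AHR is the receptor that senses planar aromatic compounds and induces CYP1 enzymes. Of 8 tested of 9 genes in a list of AHR, its partner ARNT and its targets, 2 were higher and 3 lower with enzalutamide (9.78% and 10.1% of all genes), with a median of -0.32. CYP1A1 was 1.09, 1.05 and 1.22 CPM with DMSO, 17.7, 15.7 and 17.8 with abiraterone and 3.5, 4.15 and 3.78 with enzalutamide. It rose with both drugs against DMSO and was 4.46-fold lower with enzalutamide than with abiraterone (log2 difference -2.16 ± 0.10, adjusted p = 4.9e-18). CYP1A2, its neighbour on chromosome 15, had 1, 3 and 4 counts with DMSO, 95, 53 and 80 with abiraterone and 10, 1 and 3 with enzalutamide. Only abiraterone stood apart from DMSO (log2 difference -4.16 ± 0.37, adjusted p = 2.53e-10). TIPARP was lower by 0.29, NQO1 higher by 0.19 and ARNT higher by 0.11, and AHR mRNA itself had a log2 difference of 0.03. CYP1B1 (-0.35, adjusted p = 0.252), AHRR (-0.57, adjusted p = 0.743) and AHR were not past the threshold.

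Of 9 tested of 22 genes linked to the drug-sensing receptors PXR and CAR, 1 was higher and 1 lower, near the 19.8% called over all genes. The lower was ABCG2, a drug efflux pump, with 2.72, 2.01 and 2.41 CPM with DMSO, 8.4, 7.78 and 7.02 with abiraterone and 2.63, 3.42 and 3.83 with enzalutamide. It was 2.33-fold lower with enzalutamide, whose libraries overlapped DMSO (log2 difference -1.22 ± 0.14, adjusted p = 2.64e-08). In the fit ABCG2 was nevertheless above DMSO with both drugs. Its log2 fold changes against DMSO were 0.49 with enzalutamide (adjusted p = 0.00698) and 1.71 with abiraterone. The list's count ranged from 1 without Enz B to 4 without Enz C. CYP3A4 and ABCB1 were at or near 0 counts throughout and were not tested.

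Mitotic genes were higher with enzalutamide than with abiraterone. Of 30, all tested, 18 were higher and 0 lower, with a median of 0.16, where 9.78% of all genes were higher. Against DMSO 18 fell and 2 rose with abiraterone (median -0.16), where 27.1% of all genes fell and 25.8% rose. With enzalutamide 4 fell and 10 rose (median 0.05), where 26.3% of all genes fell and 27.0% rose. The count that rose with enzalutamide was thus near the share over all genes. KIF2C, a kinesin that depolymerizes microtubules, was 64.1, 65.5 and 68.4 CPM with DMSO, 57.4, 58 and 61.1 with abiraterone and 75.8, 74.4 and 73.1 with enzalutamide (log2 difference 0.34 ± 0.04, adjusted p = 4.39e-08). CENPF, of the kinetochore, and PTTG1, securin, were both higher by 0.30, and MKI67 overlapped between the groups. Of 34 replication genes 6 were higher and 0 lower, with a median of 0.03, and the higher ones were 17.6% of the list against 9.78% of all genes. The p53 targets went the other way, with 2 of 26 higher and 12 lower (9.78% and 10.1% of all genes) and a median of -0.13. Most of these targets rose against DMSO with each drug, 16 with abiraterone (median 0.33) and 18 with enzalutamide (median 0.21). Of all genes 25.8% and 27.0% rose. The targets that fell were 5 and 7, where 27.1% and 26.3% of all genes fell. CDKN1A, the p21 cell cycle inhibitor, was 58.2, 57.3 and 46.8 CPM with DMSO, 94.1, 97.5 and 93.2 with abiraterone and 58.9, 62.8 and 61.5 with enzalutamide. Abiraterone stood well above the other groups (log2 difference -0.63 ± 0.05, adjusted p = 3.88e-08). PLK2 and SPATA18 were lower by 0.79 and 0.64, whereas SESN2, which ATF4 also drives, was higher, at 18.2, 18.1 and 19.3 CPM with abiraterone and 27.7, 26.7 and 29.2 with enzalutamide.

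Lipid genes gave a mixed picture, beside 9.78% of all genes higher and 10.1% lower with enzalutamide. Of 25 tested of 27 cholesterol synthesis genes 6 were higher and 5 lower with enzalutamide, with a median of 0.02, although 22 had fallen with each drug against DMSO (27.1% of all genes with abiraterone and 26.3% with enzalutamide). INSIG1, the sterol sensor that retains SREBP, was 416, 410 and 412 CPM with DMSO, 161, 166 and 169 with abiraterone and 211, 214 and 202 with enzalutamide (log2 difference 0.34 ± 0.03, adjusted p = 8.16e-12). STARD4 and LSS were lower by 0.34 and 0.25. Of 16 fatty acid synthesis genes 2 were higher and 7 lower, with a median of -0.08 that was -0.051 without Enz C. FASN, fatty acid synthase, was 1535, 1475 and 1645 CPM with DMSO, 732, 770 and 731 with abiraterone and 572, 627 and 590 with enzalutamide (log2 difference -0.32 ± 0.05, adjusted p = 0.000211). ACACA, its upstream carboxylase, followed the same order (log2 difference -0.36 ± 0.03). Of 8 tested of 10 targets of LXR, the oxysterol receptor, 6 were lower and 0 higher, with a median of -0.20. ABCG1, a cholesterol exporter, was 3.29, 3.35 and 3.17 CPM with DMSO, 13.5, 12.4 and 13.7 with abiraterone and 9.87, 10.3 and 10.7 with enzalutamide, so both drugs were above DMSO and abiraterone was highest (log2 difference -0.36 ± 0.09, adjusted p = 0.00377).

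Of 16 heat shock genes 1 was higher and 8 lower with enzalutamide (9.78% and 10.1% of all genes), with a median of -0.09. HSPA8, the constitutive cytosolic chaperone, was 2305, 2369 and 2477 CPM with DMSO, 2293, 2171 and 2229 with abiraterone and 1804, 1927 and 1895 with enzalutamide (log2 difference -0.25 ± 0.03, adjusted p = 1.95e-07). Of 21 tested of 25 genes of antigen presentation 8 were higher and 0 lower (9.78% and 10.1% of all genes), with a median of 0.20, a count that was 4 without Abi C or without Enz C and 5 without Abi B, without Enz A or under total count scaling. Reads of such genes can be split between relatives. Of 40 tested of 44 interferon-stimulated genes 6 were higher and 3 lower (median 0.02, and -0.033 without Enz C), near the 19.8% called over all genes, and 3 in all were called without Abi C.

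Of 93 oxidative phosphorylation genes 18 were higher and 3 lower, with a median of 0.06 that was 0.038 without Abi B. Higher members were 19.4% of the list, against 9.78% of all genes, and lower ones 3.23%, against 10.1%. Of this list 13 were called without Abi A and 11 without Abi B. The 13 mitochondrially encoded ones, 4 higher and 0 lower, had a median of 0.12, and the 80 nuclear ones, 14 higher and 3 lower, had a median of 0.05. Of these 4, the MT-CO1 call was lost without Abi A (adjusted p = 0.0994), Abi C (0.0609) or Enz A (0.121), among others. The MT-ND4 call was lost without Abi A (0.0899), Enz A (0.0902) or Enz C (0.0557), among others. The share of mitochondrial counts ran higher with enzalutamide, though the groups overlapped (11.3% to 12.3% against 10.9% to 11.5%). This share moves with the list, and its part in the result was not tested. Of 16 tested of 18 NRF2 targets 5 were higher and 0 lower, beside the same shares of all genes, with FTH1, the ferritin heavy chain, higher by 0.28. Of 5 tested of 12 metallothionein genes 2 were higher and 1 lower. MT3 had 1, 3 and 1 counts with DMSO, 2, 2 and 1 with abiraterone and 9, 13 and 14 with enzalutamide.

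The remaining lists were called in 24.1% to 44.4% of their tested members, against 19.8% of all genes, and in both directions. Glycolysis and hypoxia had 3 higher and 4 lower of 29 tested (4 called without Enz C), fatty acid oxidation 5 and 7 of 27, MYC and ribosome biogenesis 2 and 9 of 28 (6 called without Abi A, 7 without Abi B or without Enz A), neuroendocrine genes 2 and 2 of 9, Wnt genes 6 and 4 of 30, extracellular matrix and integrins 12 and 9 of 71, and growth factor receptors 3 and 3 of 18 (3 called without Abi A). Within them LEF1, a Wnt effector, was 7.29, 6.61 and 6.78 CPM with abiraterone and 11.1, 10.3 and 10.7 with enzalutamide, both above DMSO at 3.26 to 4.21. FGFR3, a fibroblast growth factor receptor, was 5.49, 4.54 and 5.45 CPM with abiraterone and 2.43, 3.7 and 2.9 with enzalutamide (log2 difference -0.76 ± 0.13, adjusted p = 3.3e-05).

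Among the 12 genes lowest with enzalutamide by the naming rule, DMSO lay above both drugs in 5, below both in 2, between them in 2 and overlapped a group in 3. KLF7, a Krüppel-like transcription factor, was 39, 38.9 and 41.6 CPM with DMSO, 39.7, 42.6 and 42.1 with abiraterone and 16.9, 18.2 and 18.1 with enzalutamide. Abiraterone left KLF7 at the DMSO level, with a log2 difference from DMSO of 0.06 that was not past the threshold, and enzalutamide was 2.33-fold lower (log2 difference -1.22 ± 0.06, adjusted p = 4.25e-18). VSTM2A had the same shape, with 4.62, 4.32 and 3.23 CPM with abiraterone, 0.967, 1.58 and 1.68 with enzalutamide and 3.99 to 4.46 with DMSO. NAV3, a neuron navigator, went in opposite directions from DMSO, with 3.8, 3.35 and 3.7 CPM there, 7.15, 7.34 and 7.36 with abiraterone and 2.13, 2.85 and 2.49 with enzalutamide (log2 difference -1.53 ± 0.12, adjusted p = 1.08e-11). LINC00161 was between in the same way (log2 difference -1.25 ± 0.13). GPR158, an orphan receptor, was 20.3, 21.5 and 21.8 CPM with DMSO, 14.6, 14.2 and 15.4 with abiraterone and 6.47, 5.14 and 5.1 with enzalutamide, below DMSO with both (log2 difference -1.42 ± 0.08, adjusted p = 8.81e-16). SMOC1, a matrix protein, had 2, 2 and 4 counts with DMSO, 159, 100 and 101 with abiraterone and 29, 62 and 62 with enzalutamide, a rise with both drugs that was smaller with enzalutamide (log2 difference -1.46 ± 0.23, adjusted p = 1.07e-05).

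Among the 12 genes highest with enzalutamide, DMSO overlapped a group in 9, lay below both in 2 and between them in 1. NIBAN1, a stress-induced regulator of translation, was 67.9, 63.3 and 49.7 CPM with DMSO, 24.4, 27.9 and 31.2 with abiraterone and 68.8, 54.1 and 64.3 with enzalutamide (log2 difference 1.16 ± 0.12, adjusted p = 5.71e-06). PDE2A, a phosphodiesterase, was 1.26, 1.11 and 1.09 CPM with DMSO, 1.57, 1.75 and 1.94 with abiraterone and 4.64, 3.82 and 3.47 with enzalutamide (log2 difference 1.18 ± 0.17, adjusted p = 3.8e-06). PLCG2, a phospholipase of immune signalling, was 0.436, 1.27 and 1.23 CPM with abiraterone and 3, 2.88 and 2.78 with enzalutamide, and ERFE, erythroferrone, 1.48, 1.18 and 1.23 and 2.9, 2.34 and 3.04. KNDC1, HOXB3 and SVIL were higher by 0.98, 0.93 and 0.93. ASNSP1, higher by 1.07, is a pseudogene of ASNS that may take reads from it. The largest value in this group, RN7SL2, a signal recognition particle RNA with near-identical copies, was 30.9, 13.3 and 90.1 CPM with abiraterone and 286, 194 and 121 with enzalutamide (log2 difference 2.15 ± 0.72, adjusted p = 0.0483). That call was lost without Abi A (0.153), Abi B (0.161), Enz A (0.149) or Enz B (0.0865) and with RLE scaling (0.0501), among others.

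With a PARPi added, the same contrast of enzalutamide with abiraterone was measured in other libraries. Enzalutamide with talazoparib differed from abiraterone with olaparib in 2337 of 18625 genes (12.5%), 1087 higher (5.84%) and 1250 lower (6.71%). The PARPi differed as well, so a difference here cannot be assigned to either. Of the genes called without a PARPi, 1631 were also called here (44.2% of those without and 69.8% of those with), 1628 of them in the same direction and 3 in the opposite one. No library is shared between both comparisons. The differences were smaller with a PARPi for 3073 of the 3694 genes (83.2%), whose median size went from 0.22 to 0.13 on the log2 scale; these genes were selected on the first of both values.

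With a PARPi 31 of the 52 androgen-induced genes were lower with enzalutamide and 1 was higher (6.71% and 5.84% of all genes), with a median of -0.32. TRPM8 was 20.4, 20 and 20.3 CPM with abiraterone plus olaparib and 5.46, 5.73 and 4.68 with enzalutamide plus talazoparib (log2 difference -1.93, adjusted p = 1.14e-19), and KLK3 was 503, 503 and 492 against 347, 323 and 323 (log2 difference -0.59, adjusted p = 7.29e-08). Neither pair of groups overlapped. Of the androgen-repressed genes 6 were lower and 0 higher, but not the same 6 as without a PARPi. UGT2B15 (log2 difference -0.10) was not past the threshold here, whereas UGT2B11 (-0.40) was lower. CYP17A1 stayed at the limit of counting, with 3, 1 and 3 counts with abiraterone plus olaparib and 0 in each library with enzalutamide plus talazoparib.

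Of the other genes described above, KLF7 was 42.1, 45.2 and 41.3 CPM with abiraterone plus olaparib and 16.1, 18.1 and 16.8 with enzalutamide plus talazoparib (log2 difference -1.34, adjusted p = 3.54e-19). CYP1A1 was 23.7, 24.3 and 20.7 against 6.46, 6.95 and 6.85 (log2 difference -1.76, adjusted p = 2.32e-16), and CYP1A2 had 178, 205 and 138 counts against 39, 32 and 20. CDKN1A was far higher in both combinations than with either drug alone, at 346, 353 and 355 CPM against 268, 265 and 267, and enzalutamide was again the lower (log2 difference -0.39, adjusted p = 7.25e-06). THBS1, a matrix glycoprotein, was 6.33, 6.83 and 7.08 CPM with abiraterone and 3.54, 3.23 and 2.87 with enzalutamide (log2 difference -1.08), and 16.6, 18.1 and 16.6 against 4.94, 5.23 and 6.09 with the PARPi (-1.67).

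The ATF4 list was still higher with enzalutamide but by less. With a PARPi 20 of 34 were higher and 0 lower (5.84% and 6.71% of all genes), with a median of 0.21, and of the tRNA synthetases 11 were higher and 0 lower, with a median of 0.09. ASNS was 105, 106 and 107 CPM with abiraterone plus olaparib and 161, 164 and 163 with enzalutamide plus talazoparib (log2 difference 0.62, adjusted p = 7.66e-06). All 6 libraries lay below the lowest abiraterone library without a PARPi, at 196 CPM. Mitotic genes were higher in 26 of 30 and lower in 0, beside the same shares of all genes, with a median of 0.25.

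The test of the difference between both contrasts called 109 genes (0.585% of those tested), 41 with a positive and 68 with a negative value, a split that turned to more positive ones under 6 other settings, such as 149 and 130 without a filter on low counts and 63 and 49 without Enz_Tala A. In 96 of the 109 the size of the drug difference was smaller with a PARPi. The ATF4 list held 13 of them, all negative, and the tRNA synthetases 8, all negative. SESN2 was the clearest, with a log2 difference of 0.59 between the drugs alone and -0.10 with a PARPi, where its libraries were 31, 28.8 and 29.1 CPM with abiraterone plus olaparib and 27.4, 28.1 and 27.6 with enzalutamide plus talazoparib (difference -0.68, adjusted p = 2.49e-06). TRIB3 went from 0.80 to 0.16 (adjusted p = 0.000274). The androgen-induced list held 7, of which 6 were positive, among them ZBTB16, from -1.56 to -0.82 (adjusted p = 0.000434), and C1orf116, from -1.12 to -0.75 (adjusted p = 0.00341). The 3 genes called in opposite directions were SIPA1L2, with log2 differences of 0.21 alone and -0.49 with a PARPi, NBEAL1, with 0.14 and -0.15, and PIAS1, a SUMO ligase, with 0.19 and -0.11. The call between the drugs alone was lost for SIPA1L2 without Abi A (0.197), Abi C (0.067), Enz B (0.170) or Enz C (0.0994) and for NBEAL1 without any 1 of the 5 libraries other than Abi B (0.0642 to 0.151).

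**Figure D5:**
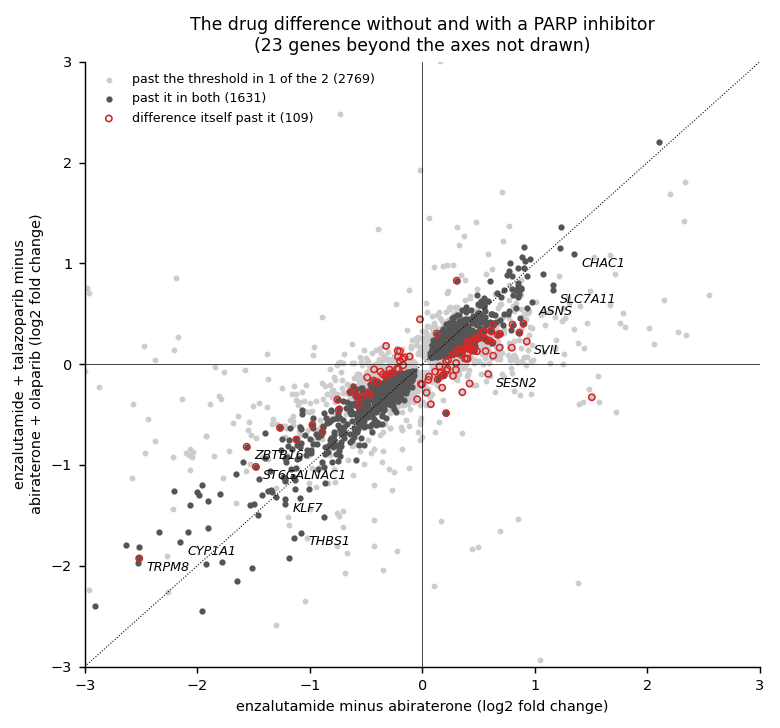
Log2 fold change of enzalutamide minus abiraterone (horizontal) against that of enzalutamide plus talazoparib minus abiraterone plus olaparib (vertical) for the 4400 genes past the threshold in either comparison, with the 1631 past it in both in dark grey and the 109 whose difference itself was past it ringed in red. The dotted line marks equal differences, and 23 genes beyond the axes are not drawn. TRPM8, CYP1A1 and KLF7 lie far down on both axes, and SESN2 lies to the right near 0 on the vertical axis.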

How the data were processed

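Total RNA of C4-2B cells was sequenced by the authors as stranded polyA mRNA libraries. The authors trimmed reads with Trim Galore, aligned them to GRCh38 with STAR and quantified genes with Salmon through the nf-core/rnaseq pipeline (STAR and Salmon versions not given in the sources used here), and deposited the estimated counts per gene as whole numbers, unnormalized. Salmon divides reads between similar genes, so near-identical copies are uncertain.

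Here all 21 panel libraries were fitted together with edgeR 4.0.16 in R 4.3.3 (TMM, filterByExpr by group, robust quasi-likelihood test, no covariates), with Benjamini-Hochberg adjustment over 18625 of 63187 genes and a threshold of 0.05. Levels are TMM-scaled CPM. Depth was 26932205 to 49833473 counts per library. The fit was tested on simulated data. A group with at most 3 counts in every library was given no fold.

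The comparison and the gene lists were chosen with earlier results of these data known. Named genes are the 12 with the largest difference in each direction at a mean of at least 100 counts, up to 4 called members of each list, CYP17A1, KLK3, TMPRSS2 and FKBP5, and genes called in opposite directions with and without a PARP inhibitor. KLK2, LIFR, TPD52, ARID5B, ACP3, the UGT2B relatives, PSAT1, PHGDH, SLC7A5, PCK2, TRIB3, CEBPG, DDIT4, ATF5, ATF4, HSPA5, ARNT, AHR, AHRR, CYP1B1, MKI67, NR3C1, CYP3A4 and ABCB1 were added after their values were seen. Some genes that this rule names are not reported here. Library letters did not pair samples: deviations of same-lettered libraries correlated between -0.069 and 0.064 over 63 pairs. Replicates within a group differed by more than sampling noise. Alternatives were RLE and total count scaling, other filters, a letter block, DESeq2 1.42.0, fits of the compared groups only, leaving out each library, and stricter thresholds. Promoter sequences are RefSeq's on GRCh38.p14, and the CYP1A1 stretch is from the GRCh38 genome.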

Additional observations from a re-analysis of the deposited data

Results flagged for a closer look

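The difference between enzalutamide and abiraterone itself differed between libraries without and with a PARPi for 109 genes, by the test of the difference between both contrasts (enzalutamide plus talazoparib minus abiraterone plus olaparib, minus enzalutamide minus abiraterone, in 1 edgeR fit). Among the named genes this log2 value was positive for TRPM8 (0.59), ZBTB16 (0.74), ST6GALNAC1 (0.46), MYBPC1 (0.63), C1orf116 (0.37), UGT2B17 (0.37), and UGT2B15 (0.25), all lower with enzalutamide alone. It was negative for SVIL (-0.70), GARS1 (-0.29), AARS1 (-0.21), MARS1 (-0.22), XBP1 (-0.25) and SESN2 (-0.68), all higher with enzalutamide alone, and for SIPA1L2 (-0.70), NBEAL1 (-0.29) and PIAS1 (-0.30), which were higher alone and lower with a PARPi. The PARPi was olaparib on the abiraterone side and talazoparib on the enzalutamide side, so the drugs' parts in these values cannot be told apart.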

How the results depend on the processing

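Between enzalutamide and abiraterone the 3694 calls were 3589 to 3907 under other scalings, filters, tools and the replicate block, and 2882 to 3178 with 1 library left out, when 73.9% to 80.6% of the 3694 were still called. Total count scaling gave 1567 higher and 2155 lower, and the filter at 1 CPM 1682 and 2102. The calls were 229 at a log2 change of at least 1 and 2335 at an adjusted p under 0.01. With a PARPi the 2337 calls became 125 and 1398 at those thresholds and 1703 to 1904 with 1 library left out. The 109 calls of the difference were 279 without a filter on low counts, 263 with DESeq2, 181 in a fit of the compared groups only, 1 and 51 at the stricter thresholds, and 65 to 113 with 1 library left out, with 65 without Enz C, 69 without Abi_Ola B, 71 without Enz_Tala B and 66 without Enz_Tala C. Their split of 41 positive and 68 negative became 149 and 130 without a filter, 98 and 83 in the compared groups only, and 42 and 35, 63 and 49, 41 and 30 and 36 and 30 without Abi_Ola A and Enz_Tala A, B and C. Against DMSO 1959 genes with abiraterone and 2059 with enzalutamide reached a log2 change of 1. Total count scaling moved the share of higher calls against DMSO from 48.7% to 60.0% with abiraterone and from 50.7% to 59.1% with enzalutamide. The cause was not tested.

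With the library letter as a replicate block the counts were 3619, 2271, 102, 9808 and 9852 for the comparisons in this order. Scaling moved the median of all genes from 0.0033 to -0.0041 and -0.012 on the log2 scale. The cholesterol list's median of 0.02 ran from -0.014 to 0.028 with 1 library left out, and was negative without Abi C (-0.013), Enz A (-0.014) or Enz B (-0.0020) and 0.00092 under total count scaling; the metallothionein median of 0.07 ran from -0.0044, without Abi A, to 0.13. Of the settings of the named genes' log2 changes, 1731 kept the call and 217 did not. Some of these were a fold or p threshold, and many others were a library left out or other processing. No direction reversed. Leaving out a library leaves 2 in its group, and low-count genes such as CYP17A1 are limited by depth.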
